A study of Mus musculus with 46 samples.

Results

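Hnf4α occupied 2116 loci of mouse liver that carried a ChIP-seq peak in all 4 Hnf4α libraries and no H3K27ac peak in any of 6 H3K27ac libraries. These loci were chosen by peak calls alone. Overlapping peaks of the 4 Hnf4α lists were merged into 70756 loci, of which 23344 held a peak in every list, and the 2116 loci outside H3K27ac are those of the 23344 that shared no base with an H3K27ac peak. The remaining 21228 shared loci, called here the loci with H3K27ac, serve as the comparison. All samples were livers of male C57BL/6 mice, with no genetic change named, that were obtained at 5 weeks of age, acclimated on chow and then kept for 20 weeks on a lipid-rich diet (LD, labelled HFD, with 60% of energy from lipid, 20% from carbohydrate and 20% from protein) or a carbohydrate-rich diet (CD, labelled LFD, with 10%, 70% and 20%). Hnf4α and C/EBPα ChIP-seq had 2 libraries per diet, H3K27ac ChIP-seq had 3, RNA-seq had 5 mice, and promoter capture Hi-C (PCHi-C) and Hi-C were deposited as 1 list per diet from pooled replicates. No chow-fed group was analysed, so each diet is the reference for the other. The study describes the libraries of a group as separate animals, and p-values measure the spread between them.

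Hnf4α is a nuclear receptor that binds DNA as a homodimer at direct repeats of a hexamer related to AGGTCA, and it is known as a master regulator of hepatocyte identity. Acetylation of lysine 27 of histone H3 (H3K27ac) is deposited by the acetyltransferases p300 and CBP and marks active promoters and enhancers. A factor can occupy a site without this mark, for example at an element that is bound but inactive in the tissue examined. C/EBPα is a basic leucine zipper factor that shares many hepatic enhancers with Hnf4α.

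The central 200 bases of 7 loci are shown to let the sequence be read beside the binding, with the coordinates of the mm9 build on the plus strand. The first 3 are the highest loci outside H3K27ac that hold the string CAAAGNNCA on either strand, a core of the Hnf4α recognition sequence. The capitals mark the string, which reads in reverse complement where it lies on the minus strand. They lie at chr13:72478085-72478284, chr1:121087858-121088057 and chr17:26979698-26979897, all intergenic.
Gm20554 locus: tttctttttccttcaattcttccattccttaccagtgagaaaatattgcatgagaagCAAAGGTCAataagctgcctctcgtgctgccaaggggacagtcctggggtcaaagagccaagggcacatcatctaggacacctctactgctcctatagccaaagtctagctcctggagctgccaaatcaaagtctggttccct
Gli2 locus: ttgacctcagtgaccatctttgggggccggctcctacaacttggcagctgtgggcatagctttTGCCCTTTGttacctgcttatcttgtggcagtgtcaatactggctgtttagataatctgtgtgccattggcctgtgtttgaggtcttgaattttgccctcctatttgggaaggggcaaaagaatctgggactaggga
Nkx2-5 locus: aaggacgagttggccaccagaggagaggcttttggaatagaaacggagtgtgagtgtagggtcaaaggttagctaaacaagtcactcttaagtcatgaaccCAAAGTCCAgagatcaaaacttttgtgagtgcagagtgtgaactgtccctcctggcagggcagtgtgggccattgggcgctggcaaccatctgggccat
The next 3 are the highest that hold none of the 5 strings searched, and they lie at chr11:3046777-3046976 in an intron of Sfi1, at chr15:83607972-83608171 between genes and at chr7:150375993-150376192 in an intron of Kcnq1.
Sfi1 intron locus: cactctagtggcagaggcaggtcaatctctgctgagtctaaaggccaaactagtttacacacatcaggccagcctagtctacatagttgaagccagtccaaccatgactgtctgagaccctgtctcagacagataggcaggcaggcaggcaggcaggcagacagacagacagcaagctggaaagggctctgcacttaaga
Mpped1 locus: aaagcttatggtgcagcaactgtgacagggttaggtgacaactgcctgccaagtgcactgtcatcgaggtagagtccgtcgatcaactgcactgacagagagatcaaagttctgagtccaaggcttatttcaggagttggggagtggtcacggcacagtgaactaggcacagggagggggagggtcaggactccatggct
Kcnq1 intron locus: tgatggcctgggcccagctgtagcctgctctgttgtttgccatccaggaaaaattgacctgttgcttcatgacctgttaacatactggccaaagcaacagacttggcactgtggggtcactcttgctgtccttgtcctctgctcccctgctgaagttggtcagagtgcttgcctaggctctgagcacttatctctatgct
The last is the highest within 1000 bp of a transcription start site (TSS) among loci whose central 200 bases hold no UTR, at chr15:74941634-74941833 in an intron of Ly6c2.
Ly6c2 locus: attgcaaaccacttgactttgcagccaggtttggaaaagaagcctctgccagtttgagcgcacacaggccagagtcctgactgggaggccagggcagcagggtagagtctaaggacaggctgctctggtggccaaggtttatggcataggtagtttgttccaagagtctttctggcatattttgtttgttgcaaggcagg

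The Gm20554 locus had heights of 125.5 and 141.2 on LD and of 53.0 and 99.8 on CD, where height is the normalised tag count of the peak as HOMER gives it, in tags per 10 M tags of the library. It lay 287827 bp from the nearest TSS, that of the unexpressed gene Gm20554, and 698503 bp from the nearest H3K27ac peak. The Gli2 locus, which is 137762 bp from the TSS of Gli2, a transcription factor of Hedgehog signalling, had heights of 80.8 and 87.8 on LD and of 61.8 and 164.8 on CD. The Nkx2-5 locus lay 1288 bp from the TSS of Nkx2-5, a cardiac homeobox gene with a TPM of 0 in all mice, and had heights of 112.8 and 102.0 on LD and of 54.2 and 113.0 on CD. At each of these 3 loci, the lower height on CD came from CD library 1, which was low throughout.

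The loci outside H3K27ac were bound less than the loci with H3K27ac in every library. Their median height was 18 and 16.0 in LD libraries 1 and 2 and 10 and 18.2 in CD libraries 1 and 2, against 38, 35.5, 22.8 and 46.1 at the loci with H3K27ac. The mean of the 4 libraries had a median of 15.7 (quartiles 11 and 23.8) against 35.6 (quartiles 23.2 and 58.1). Height and the H3K27ac calls are the values the loci were selected on, so this is a description and no test was made. Split into 5 equal height classes, the shared loci lay outside H3K27ac in 28.7% of the lowest class and in 0.965% of the highest, which is 45 loci. The median fold over the input was 12.7, 11.4, 8.5 and 13 in the 4 libraries (LD 1, LD 2, CD 1, CD 2), and 14.9, 13.4, 11.3 and 20.2 at the loci with H3K27ac.

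**Figure D1:**
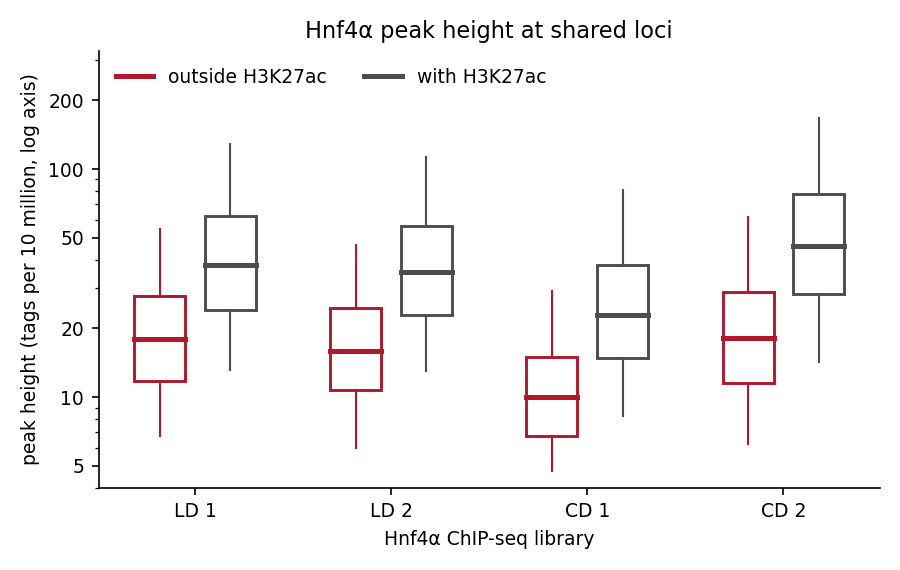
Height of the Hnf4α peak (HOMER normalised tag count, log axis) at the 2116 shared loci outside H3K27ac (red) and the 21228 with H3K27ac (grey) in each library, with the median as a thick line, quartiles as a box and the 5th and 95th percentiles as whiskers. In each library the median of the loci outside H3K27ac lies below the lower quartile of the others, and CD 1 is lowest in both sets.

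The 10 highest loci outside H3K27ac had mean heights of 98.8 to 217.2, and most were nearest to genes with little RNA in liver. The highest, at chr1_random:412439-412666 and 20736 bp from Hhipl2, had heights of 250.0 and 226.2 on LD and 137.5 and 255.2 on CD. It lies on a sequence not placed on a chromosome, and the H3K27ac lists hold peaks on chromosomes 1 to 19, X and Y only, so that 13 of the 2116 loci fell outside H3K27ac by the extent of the lists. The second, the Sfi1 intron locus shown above, had a height of 133.0 to 293.8 but was only 4.51-fold to 7.73-fold over the input, the weakest enrichment of the 10. The others were nearest to Stk32a, I730028E13Rik, Cyp4f17, Mpped1, Tmeff2, Gm20554, Kcnq1 and Gli2. Of these genes, Cyp4f17, a cytochrome P450 of the family that hydroxylates fatty acids and eicosanoids, had the highest expression, at 7.72 ± 1.02 TPM on LD and 6.37 ± 0.686 TPM on CD (SD, n = 5 each). Its locus, at chr17:32620264-32620506 in a coding exon of Cyp4f39, had heights between 74.5 and 140.2 with a mean of 108.4, lowest in CD library 1 and highest in CD library 2, and lay 63 bp from an H3K27ac peak. Kcnq1, a voltage-gated potassium channel, had 1.18 ± 0.257 and 1.21 ± 0.207 TPM on LD and CD. The other 8 genes had at most 0.999 TPM on either diet.

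The distance to H3K27ac varied widely among the 2103 loci on chromosomes with H3K27ac peaks. Its median was 15224 bp, with a 10th percentile of 1466 bp and a 90th of 129931 bp. Only 92 loci (4.37%) lay within 500 bp of an H3K27ac peak and 272 (12.9%) lay over 100 kb away. At the edge of the rule, the 92 loci just outside a peak had a median height of 18.6, and the 587 shared loci overlapped by 1 of the 6 H3K27ac lists had a median of 19.6. The nearest gene of the former had a median of 1.1 TPM and of the latter 1.14 TPM. Ordered by the number of H3K27ac lists that covered them, from 0 to 6, shared loci showed a graded series: the median height went from 15.7 to 38.9, the share with a C/EBPα peak from 43.5% to 63.4%, and the share in contact with a promoter from 22.4% to 45.2%. Steps between neighbouring numbers of lists were small and not all in one direction, for example a median height of 22.6 with 2 lists and 20.9 with 3. The largest step in height, distance to a TSS and expression was that from 5 to 6 lists, a group that holds 17774 loci.

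**Figure D2:**
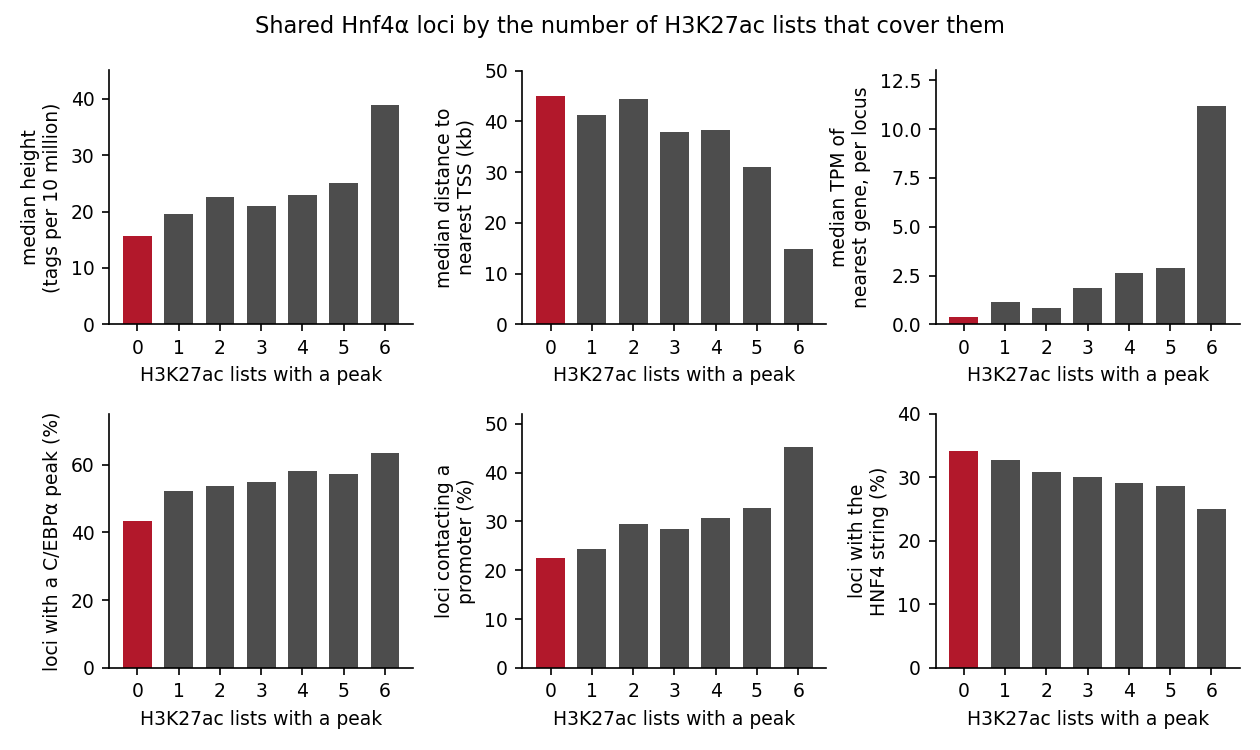
Shared Hnf4α loci grouped by how many of the 6 H3K27ac lists overlap them (x axis), with 2116 loci in the bar for 0 (red) and 17774 in the bar for 6. The panels give the median height, the median distance to the nearest TSS, the median TPM of the nearest gene with each locus counted once, and the percentages of loci with a C/EBPα peak, a promoter contact and the HNF4 string. All but the distance and the string share are lowest for the loci outside H3K27ac.

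Loci outside H3K27ac were rarely at promoters. Of them, 38 (1.8%) lay within 1000 bp of a TSS, against 2808 (13.2%) of the loci with H3K27ac. The share was also low where 1 to 5 H3K27ac lists overlapped a locus, at 1.7% to 2.94%. With all 6 lists it was 15.3%, so the low share is not particular to the loci outside H3K27ac. The median distance to the nearest TSS was 45008 bp (quartiles 16174 and 123318 bp) against 17341 bp (quartiles 4577 and 50431 bp), and 323 loci (15.3%) against 865 (4.07%) lay over 200 kb from any TSS. By the GENCODE annotation of the same assembly, which covers 2103 of the loci, 1204 (57.3%) were intergenic, 818 (38.9%) intronic, 35 in coding exons, 27 in UTRs and 19 in exons of non-coding transcripts. Among the loci with H3K27ac, 40.5% were intergenic and 50.7% intronic. Positions have no replicates, and these shares are descriptions.

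The 38 loci at a TSS belonged mostly to genes with little or no RNA in liver. Ranked by expression, the first was Ltbp4, a matrix protein that binds latent TGF-β, with 18.2 ± 5.32 TPM on LD and 21.7 ± 2.77 TPM on CD (SD, n = 5 each). Its locus, at chr7:28122473-28122713, had heights of 17.5 and 17.5 on LD and 9.5 and 9.5 on CD and lay 1072 bp from an H3K27ac peak. The other genes among the 10 with the highest TPM were Snord64, Adgrv1, Ly6c2, Loxl4, Cdon, 1810053B23Rik, Ly6c1, Pcdhga12 and Mir200a, with mean TPM of 0.0639 to 1.79. Adgrv1, a very large adhesion G protein-coupled receptor, had its locus 150 bp from the TSS at chr13:81772144-81772455, with heights of 12.5 and 14.0 on LD and 6.25 and 9.0 on CD. Ly6c1 and Ly6c2, surface proteins of monocytes and other cells, are close paralogs between which reads could have been split. The Ly6c2 locus had heights of 67.0 and 40.5 on LD and 21.2 and 43.2 on CD.

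The X chromosome held a larger share of loci outside H3K27ac than the autosomes. On X, 82 of 439 shared loci (18.7%) lay outside H3K27ac, and on the autosomes 2020 of 22891 (8.82%), with 7.04% on chromosome 10 as the lowest and 10.2% on chromosome 13 as the highest. Height, density of loci and H3K27ac coverage moved with this difference. The median height of shared loci was 18 on X and 33.8 on the autosomes, there were 2.63 and 9.26 shared loci per Mb, and H3K27ac peaks covered 1.11% to 1.31% of X and 5.57% to 6.4% of the autosomes over the 6 libraries. Their part in the share was not tested.

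The HNF4 string was more frequent in the loci outside H3K27ac, although they were bound less. CAAAGNNCA was present in the central 200 bases of 717 of the 2103 loci with sequence (34.1%), of 5495 loci with H3K27ac (25.9%) and of 26.6% of all shared loci, counting both strands. By the number of H3K27ac lists that overlap a locus, the share fell gradually. It was 32.7% with 1 list, 30.0% with 3, 28.7% with 5 and 25.1% with 6. Within the 5 height classes, the share was 34.1%, 33.9%, 36.8%, 29.9% and 34.1% from the lowest to the highest class outside H3K27ac, and 22.6%, 22.5%, 23.4%, 26.7% and 33.0% with H3K27ac. The share was thus nearly level over height outside H3K27ac and climbed with height at the loci with H3K27ac, and the sets were close in the highest class, which holds 45 loci outside H3K27ac. The other strings differed little: TTGCNNAA of C/EBP factors was in 20.3% and 18.8%, TGANTCA of AP-1 in 6.7% and 7.67%, TGTTTAC of FOXA factors in 5.9% and 6.17%, and AGNNGGCNC of CTCF in 11.6% and 11.9%. None of the 5 strings was in 806 loci (38.3%), against 45.2%. Matches of different strings can share bases at a locus. The GC content of the same 200 bases had a median of 46.5% outside H3K27ac and 48.5% with it.

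C/EBPα was found at fewer of these loci. A C/EBPα peak of any of 4 libraries overlapped 920 of 2116 loci (43.5%), and 13190 of 21228 (62.1%) of the loci with H3K27ac. By library, a peak was present at 31.0% and 32.9% on LD and 27.1% and 20% on CD, each below its counterpart of 48.2%, 48.7%, 44.0% and 37.9%. Peaks in all 4 C/EBPα lists were present at 300 loci (14.2%) against 28.7%, and 1196 loci (56.5%) had none, against 37.9%. The share followed Hnf4α height: it was 36.4%, 49.2%, 64.3%, 61.9% and 66.7% over the height classes outside H3K27ac and 45.4%, 55.3%, 63.3%, 66.7% and 74.9% with it, so that the sets lay closer together at equal height. Where a C/EBPα peak was present, the median C/EBPα heights were 14.0 and 15 in the LD libraries, then 19 and 17.0 in those of CD, against 20, 21.5, 32.0 and 24.0.

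String shares differed with C/EBPα occupancy. Outside H3K27ac, the HNF4 string was in 40.9% of the loci without a C/EBPα peak and in 24.8% of those with a peak. With H3K27ac, these shares were 28.3% and 24.4%. The C/EBP string was in 6.86% of the loci without a C/EBPα peak and 37.5% of those with one, against 5.08% and 27.1%. Loci outside H3K27ac with and without C/EBPα thus differed more in both strings than their counterparts with H3K27ac, as a description of sequence with no test.

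**Figure D3:**
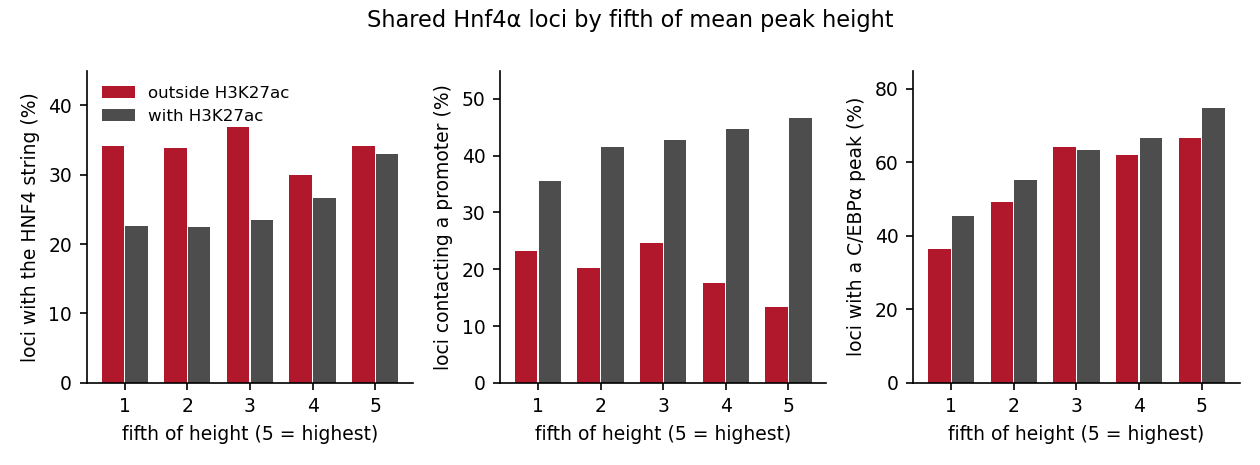
Percentages of shared Hnf4α loci with the HNF4 string, a promoter contact and a C/EBPα peak, within 5 equal classes of all shared loci by mean Hnf4α height, for loci outside H3K27ac (red, 1342 in the lowest class and 45 in the highest) and with H3K27ac (grey). The contact share is lower outside H3K27ac in every class, whereas the C/EBPα shares of the middle class are 64.3% and 63.3%.

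PCHi-C, which enriches Hi-C ligation products for those with a promoter bait at an end, placed fewer loci outside H3K27ac in contact with promoters. A locus was counted where it overlapped a fragment that interacts with a bait at a CHiCAGO score of 5 or more. On LD, 400 loci (18.9%) were in contact, and on CD 404 (19.1%), against 36.1% and 38.1% of the loci with H3K27ac. On either diet, 473 loci (22.4%) were in contact, 331 of them on both, 69 in the LD list only and 73 in the CD list only. Unlike the C/EBPα share, the contact share did not rise with height: it was 23.3%, 20.2%, 24.6%, 17.5% and 13.3% from the lowest to the highest class, against 35.5%, 41.6%, 42.8%, 44.7% and 46.6% with H3K27ac. Fewer of the loci were themselves in bait fragments (122, 5.77%, against 18.8%). Among those outside baits, 377 of 1994 (18.9%) were in contact, against 34.0%. The lists come from pooled replicates, 1 per diet, so the difference between the diets has no replicate error.

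Most contacting loci had no counted contact with their nearest gene, whether outside H3K27ac or with it. A locus in the same fragment as the bait of its nearest gene could not contact that bait. Nearest genes without a bait were counted as not contacted. Of the 412 loci outside H3K27ac whose contacted bait carried a gene of the RNA-seq table, 47 (11.4%) contacted the nearest gene, against 14.0% of the loci with H3K27ac. The 868 genes contacted by the loci outside H3K27ac had a median of 3.25 TPM, and those contacted by loci with H3K27ac a median of 5.47 TPM. A contacting locus had a median of 1 contact, and 38 loci had 5 or more. The most, 18 bait fragments (15 on LD and 17 on CD), were contacted by chr2:155581491-155581721, which lies 4652 bp from Procr, the endothelial protein C receptor at 1.25 TPM. Its heights were 14.8 and 16.5 on LD and 8.25 and 12 on CD. Among the genes of its baits were Acss2, a cytosolic acetyl-CoA synthetase with a mean of 321.2 TPM, Romo1 with 108.5 TPM and the glutathione synthetase gene Gss with 70.4 TPM.

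Among the 10 loci with the most contacts, some met active and others silent promoters, and 7 lay in bait fragments themselves, against 5.77% of all loci outside H3K27ac. The locus chr1:167566519-167566765, 1964 bp from Mpzl1, contacted 17 bait fragments, and the gene with the highest expression among them was Creg1, a lysosomal glycoprotein, at 458.3 TPM on LD and 271.6 on CD. The locus chrX:71601687-71601931, near Lage3, contacted 17 bait fragments that carry Ssr4 and Idh3g, with means over the diets of 210.0 and 96.8 TPM. By contrast, chr17:37004185-37004405, which lies 141 bp from Trim15, contacted 14 bait fragments, and of their genes 9 had a TPM of 0, Trim26 had 14.2 TPM on LD and 15.2 on CD, and Ubd had 15.3 and 0.985 TPM. The locus chr11:100030336-100030644, nearest to Krt19, a keratin of cholangiocytes, contacted 14 bait fragments of keratin and keratin-associated genes with at most 6.85 TPM on LD and 1.4 on CD, both those of Krt23. The other 5 were nearest to Olfr1513, Nudt2, Mov10l1, Nol6 and Lmf2, with 9 to 12 contacts. Domain borders of Hi-C lay within 20 kb of 12.2% of the loci on LD and 11.7% on CD, against 11.2% and 10.6%.

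The genes nearest to the loci outside H3K27ac were mostly silent or weakly expressed. These 1759 genes had a median TPM of 0.351 to 0.487 over the 5 LD mice and 0.318 to 0.374 over the 5 CD mice. The 8755 genes nearest to loci with H3K27ac had medians of 6.0 to 7.23 and 5.79 to 6.67, so the ranges of the sets did not overlap. Of the 1759 genes, 385 (21.9%) had a TPM of 0 in all mice, 981 (55.8%) a mean below 1 and 365 (20.8%) a mean above 10. For the loci with H3K27ac these shares were 9.56%, 30.5% and 42.9%, and among all 25494 genes measured they were 28.4%, 53.7% and 24.5%. The share below 1 TPM was thus close to that of all genes. Of the 1759, 1008 were also nearest to a locus with H3K27ac, and the 751 that were not had a median of 0.0748 TPM. Most genes (1488) had 1 locus outside H3K27ac nearest to them. Those with 5 or more were Bcor, a transcriptional corepressor, with 8, the adhesion receptor gene Adgrl3 with 7, the homeobox gene Irx3 with 6, and Rybp, a Polycomb-associated protein, and 1700071K01Rik with 5 each.

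The liver samples carried the RNA of hepatocytes throughout. All 10 hepatocyte markers were above 1 TPM, and their sum was 94236 to 105387 TPM on LD and 94618 to 108032 TPM on CD. Of the 10, 4 were called higher on CD. Summed cholangiocyte markers were 52.9 to 150.9 TPM on LD and 21.6 to 37.6 on CD, with 1 of 7 called in each direction, and adipocyte markers 84.7 to 138.3 and 16.5 to 29.2, with 2 of 5 called higher on LD and Lep and Plin1 at 0. Macrophage markers, 1 of 8 called higher on LD, summed to 537.9 to 1255 and 337.6 to 649.4 TPM, which overlap. Of 8 stellate cell markers 3 were called higher on LD. Endothelial markers, 1 of 8 called higher on LD, summed to 234.6 to 312.2 TPM on LD and 236.9 to 276.2 on CD, stellate cell markers to 271.4 to 462.6 and 259.6 to 290.9, and lymphocyte markers, 1 of 8 called in each direction, to 4.93 to 10.4 and 4.9 to 6.44. In bulk liver, fewer cells of a type and less RNA per cell cannot be told apart. The gene Hnf4a itself had 162.6 ± 13.5 TPM on LD and 184.6 ± 12.6 TPM on CD (SD, n = 5 each; log2 fold change -0.26, SE 0.07, edgeR adjusted p = 0.0176), and Cebpa had 229.9 ± 15.9 and 261.2 ± 17.9 TPM (log2 fold change -0.26, SE 0.08, adjusted p = 0.0202).

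Gene groups of the liver differed in how many of their shared Hnf4α loci lay outside H3K27ac. Of all shared loci, 2116 of 23344 did. Nearest to 23 genes of lipogenesis and triglyceride synthesis lay 81 shared loci, and nearest to 16 genes of apolipoproteins and lipoprotein assembly lay 53, and in both groups 0 lay outside H3K27ac. The counts outside and with H3K27ac were 1 and 63 for fatty acid oxidation, 1 and 86 for bile acids and cholesterol, 1 and 99 for the urea cycle and amino acid catabolism, 3 and 100 for gluconeogenesis, glycolysis and glycogen, and 3 and 106 for coagulation, complement and plasma proteins. Hepatocyte transcription factors had 9 and 138. Groups with little expression in liver stood at the other end. Neuronal adhesion and synapse genes had 26 loci outside and 44 with H3K27ac (37.1% outside), homeobox and patterning genes had 32 and 90 (26.2%), and genes of intestinal and kidney epithelium had 7 and 37 (15.9%). Cyp, Ugt and Sult enzymes, whose 155 genes had a median of 1.73 TPM, had 25 and 213 (10.5%). A locus was given to the gene with the nearest TSS, so these counts describe positions and no test was made.

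The highest locus of these groups was that of Cyp4f17 described above, with a mean height of 108.4. After the Nkx2-5 locus, the highest of the patterning group lay at chr1:91815851-91816087, 11782 bp from Gbx2, a homeobox gene of the hindbrain at 0 TPM, with heights of 92.5 and 72.5 on LD and 60 and 111.5 on CD. In the neuronal group, chr14:94104227-94104461 in an intron of Pcdh9, a protocadherin, lay 26 bp from an H3K27ac peak and had heights of 88.2 and 99.0 on LD and 43.0 and 82.2 on CD, and chr5:19028084-19028335 in an intron of the scaffold gene Magi2 had 76.5 and 60 on LD and 32.8 and 65.5 on CD. Among the transcription factor genes of hepatocytes, a locus 21483 bp from Nr2f1, an orphan nuclear receptor, had heights of 25.5 and 23.8 on LD and 24.5 and 44.8 on CD, and a locus 92924 bp from Nr5a2, a regulator of bile acid synthesis, had 29.0 and 15 on LD and 10.8 and 29.0 on CD. The second highest of the Cyp, Ugt and Sult group lay 50720 bp from Cyp3a41a, which is listed at 0 TPM, and 207770 bp from the nearest H3K27ac peak, with heights of 74.8 and 62.2 on LD and 30.8 and 66.0 on CD. Cyp3a41a has near-identical copies between which reads could have been split.

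Apart from the Cyp, Ugt and Sult enzymes with 25 loci, the groups of liver metabolism and plasma proteins had 0 to 3 loci each, with median heights of 6.06 to 20.3, against 14.1 for the neuronal and 20.1 for the patterning group. The single locus of fatty acid oxidation lay 42525 bp from Eci2, an enzyme of unsaturated fatty acid oxidation at 250.4 ± 18.6 TPM on LD and 224.2 ± 46.5 TPM on CD, and had heights of 27 and 15.8 on LD and 13 and 25.5 on CD. That of bile acids lay in an intron of Abcb4, the phospholipid exporter of the canaliculus, 681 bp from an H3K27ac peak, with heights of 5.25 and 8.0 on LD and 4.75 and 6.25 on CD. The complement gene C6 had a locus 73302 bp away with heights of 43.0 and 40.2 on LD and 13.8 and 22.5 on CD. The coagulation factor gene F7 had one of 13.2 and 10.2 on LD and 4.75 and 13 on CD. Further loci lay 9399 bp from Sdsl, an enzyme of serine catabolism (22.0 and 18.5 on LD, 8.75 and 16.8 on CD), 28415 bp from Ppp1r3c, a glycogen-targeting phosphatase subunit (13.5 and 11.5 on LD, 11.5 and 22.5 on CD), and 57721 bp from Irs2, an adaptor of the insulin receptor (10.5 and 16.0 on LD, 6.75 and 18.2 on CD). Of the epithelial group, an intron of Lrp2, which encodes the endocytic receptor megalin, held a locus with heights of 26 and 10.2 on LD and 15.2 and 28.0 on CD, and a locus 95894 bp from Cdh17, an intestinal cadherin, had 15.2 and 16.8 on LD and 11.8 and 27.5 on CD.

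Between the diets, Hnf4α tags differed at 159 of the 2116 loci. Tags of the highest peak of each locus were compared over all 23344 shared loci by the quasi-likelihood test of edgeR with TMM scaling. A locus was called where its fold exceeded 1.5 and p, adjusted by the Benjamini-Hochberg method over all of them, was under 0.05. Higher on LD were 119 loci outside H3K27ac (5.62%), where 3.35% of all shared loci were called in this direction. Higher on CD were 40 (1.89%), where 1.97% of all were called. The first share lies above the background and the second near it, and no test of the shares was made. Without CD library 2 the first share was 0.898%, where 0.917% of all shared loci were called, so it was no longer above the background. The median log2 fold change (LD over CD) was 0.18 outside H3K27ac and 0.00 over all shared loci. Because every locus has a peak on both diets by the rule, sites lost on a diet are not among these counts.

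The direction towards LD was seen in every height class, with medians of 0.18, 0.19, 0.20, 0.13 and 0.09 outside H3K27ac and 0.10, 0.03, 0.01, -0.04 and -0.10 with it. The calls depended on the library size used and on single libraries. CD library 1 held 2739889 tags in the shared loci and CD library 2 held 5525698, although the lists imply equal library totals, against 4451584 and 4045220 on LD. With the implied library totals as the only scaling in place of the tags in shared loci, edgeR called 0 loci at a median log2 fold change of 0.26, and 184 of the 2116 passed an unadjusted p of 0.05. With the tags in shared loci and no TMM, chosen after seeing the data, it called 203 (9.59%, where 6.77% of all shared loci were called). DESeq2 called 91 loci (4.3%, where 3.35% of all were called). Leaving out LD library 2 or CD library 2 left fewer calls, at median log2 fold changes of 0.18 and 0.09. Over all shared loci, these medians were -0.01 and 0.01. With a library left out, its diet has 1 library, which is assumed to vary like the pair of the other diet, so the spread rests on that pair alone.

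**Figure D4:**
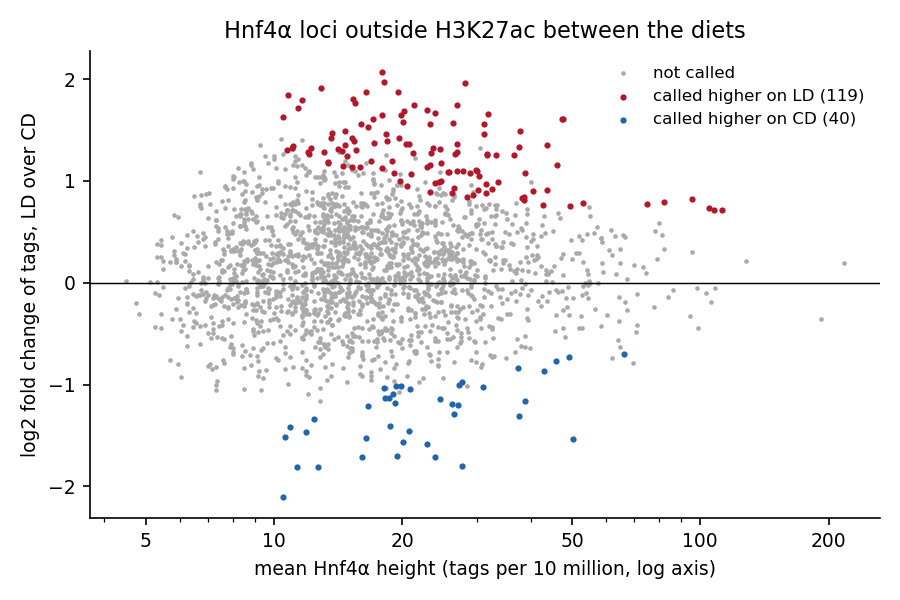
Log2 fold change of Hnf4α tags (LD over CD, edgeR) against the mean height over 4 libraries (log axis) for each of the 2116 loci outside H3K27ac. Loci called higher on LD (119) are red and those higher on CD (40) blue, and the cloud is centred above 0, at a median of 0.18.

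Of the 10 highest loci, 3 were called, all higher on LD, and they were nearest to I730028E13Rik, Mpped1 and Gm20554, with log2 fold changes of 0.71, 0.71 and 0.73 (edgeR adjusted p = 0.0156, 0.0172 and 0.0172). In the highest height class, 6 of the 45 loci outside H3K27ac were called higher on LD (13.3%), against 1.8% with H3K27ac. Over all shared loci this share was 3.35%. With the implied library totals as the only scaling, these 3 calls were lost. The largest folds were at loci of low to moderate height, given here as CPM of the tags in the shared loci after TMM scaling. Higher on LD was chr17:56523418-56523682 in an intron of the histone demethylase gene Kdm4b, with 23.2 and 32.1 CPM on LD and 10.2 and 4.05 on CD (log2 fold change 2.07, SE 0.38, adjusted p = 0.00999). A locus in an intron of Fam46c, chr3:100283212-100283475, had 25.9 and 28.3 on LD and 6.21 and 7.37 on CD (1.97, SE 0.30, adjusted p = 0.0042). The Ly6c1 locus at a TSS, chr15:74878458-74878708, had 59.1 and 24.9 on LD and 13.5 and 8.85 on CD (1.96, SE 0.37, adjusted p = 0.0104). At Ly6c1, LD library 1 stood well above LD library 2. Without CD library 2, the Kdm4b and Ly6c1 loci were at 1.43 and 1.64 and not called (edgeR adjusted p = 0.0686 and 0.0571), without CD library 1 the Kdm4b locus was at 2.75, and without LD library 1 the Ly6c1 locus was at 1.2. Loci 8864 bp from Kcnh1, a potassium channel gene, and 32101 bp from Dnajb8, a chaperone gene, had log2 fold changes of 1.91 and 1.87, and the former was not called without CD library 2 (edgeR adjusted p = 0.0638). Of the genes nearest to these 5 loci, Fam46c had 9.4 ± 1.48 TPM on LD and 9.64 ± 0.818 TPM on CD (SD, n = 5 each), and the others were below 1 TPM. At the C6 locus named above, Hnf4α was higher on LD by 1.1 (SE 0.23, adjusted p = 0.0164), while the RNA of C6 was 85.6 ± 27.4 TPM on LD and 149.4 ± 17.7 TPM on CD.

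Higher on CD was chr6:35604141-35604399, 114387 bp from Mtpn, with 3.61 and 4.11 on LD and 17.2 and 16.2 on CD (log2 fold change -2.10, SE 0.36, adjusted p = 0.00728). A locus 10706 bp from Gadd45g, a stress-induced gene, had 6.99 and 4.59 on LD and 28.1 and 14.0 on CD (-1.81, SE 0.40, adjusted p = 0.0193). In an intron of Fhit, a locus had 5.19 and 4.35 on LD and 15.7 and 17.7 on CD (-1.81, SE 0.35, adjusted p = 0.0113). These 3 loci were low on LD, where their heights were 4.0 to 7.75. A locus nearest to Mir138-1 and a locus in an intron of Inpp5a, nearest to Nkx6-2, had log2 fold changes of -1.80 and -1.71. The Mir138-1 value rested on unlike LD libraries, with 18.7 and 5.07 CPM, and was -3.03 without LD library 1 and -1.16 without LD library 2, while DESeq2 did not call it (adjusted p = 0.261). Gadd45g was not called without LD library 2 or CD library 1 (-1.54 and -1.27, edgeR adjusted p = 0.0691 and 0.0746), nor Fhit without CD library 2 (-1.71, adjusted p = 0.0552). Among all 119 loci higher on LD, the nearest gene was called higher on LD at 16 and higher on CD at 6. It was not called at 43 and not tested for low counts at 54. Among the 40 higher on CD, these numbers were 4, 1, 11 and 24. Over all tested genes, 13.8% were called higher on LD and 11.1% higher on CD. These shares leave out untested genes, so the 54 and 24 loci have no part in a comparison with them.

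C/EBPα tags could be compared at 302 of the 13813 loci with a peak in all 4 C/EBPα lists, those that overlap a locus outside H3K27ac. By the same test, 50 (16.6%) were called higher on LD, where 10.8% of all 13813 were, and 16 (5.3%) higher on CD, where 5.82% were. The median log2 fold change was 0.13, and -0.02 over all. DESeq2 called 29 (9.6%, where 6.73% of all 13813 were called). Leaving out LD library 2 or CD library 2 left fewer calls, at median log2 fold changes of 0.13 and 0.17. Over all, these medians were -0.02 and -0.01. The largest fold was at chr13:48289229-48289573, 67379 bp from Id4, an inhibitor of bHLH factors, with 176.9 and 176.2 CPM of C/EBPα tags on LD and 52.8 and 48.1 on CD (log2 fold change 1.80, SE 0.23, adjusted p = 2.32e-10). At the same locus the Hnf4α fold was 0.28 on the log2 scale (adjusted p = 0.523). In the other direction, a locus 4196 bp from Igf2bp3, an oncofetal RNA-binding protein, had 15.5 and 19.2 on LD and 48.4 and 59.8 on CD (-1.62, SE 0.35, adjusted p = 0.000293). A locus 46129 bp from Dmbt1 was called higher on CD for both factors, at -1.24 for C/EBPα and -1.19 for Hnf4α (adjusted p = 3.89e-05 and 0.0209).

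Further calls higher on LD were nearest to Nkain2, 4933400A11Rik, 4930554G24Rik and Exoc6b, at log2 fold changes of 1.49 to 1.6. Those higher on CD were nearest to 5033403H07Rik, Aar2 and 4930519F16Rik, at -1.20 to -0.94, and each of these 3 lost its call when 1 library was left out. Of the 302 loci, 11 were called higher on LD for both factors and 1 higher on CD for both, 2 were called in opposite directions, 11 were called for Hnf4α alone and 52 for C/EBPα alone. No shares over all loci tested for both factors stand beside these counts. They describe the 302 loci alone and show no trait particular to loci outside H3K27ac.

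The RNA of the genes nearest to the loci outside H3K27ac differed between the diets in both directions. Of the 1759 genes, 956 had enough counts to be tested among 13494 genes. Higher on LD were 151 (15.8%), where 13.8% of all tested genes were, and higher on CD 142 (14.9%), where 11.1% of all were, by edgeR with a fold above 1.2. No test of the shares was made. The 318 tested genes that were nearest to no locus with H3K27ac had 60 calls (18.9%) higher on LD and 24 (7.55%) higher on CD. With the nearest TSS limited to 50 kb, 171 of 557 genes were called (30.7%). This share was near the 30.6% of the 956 genes, where 24.9% of all tested genes were called. By limma on TPM values, 171 were higher on LD (17.9%, where 16.5% of all tested genes were) and 77 higher on CD (8.05%, where 5.48% of all were), with median log2 differences of 0.05 for these genes and 0.06 for all. Of the 19 genes named for the largest folds, 16 were also nearest to a locus with H3K27ac. In 17 of these, which were chosen for large folds, the mice of the diets did not overlap, as in 18.5% of all tested genes.

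Among the genes higher on LD were members of the Cyp2a and glutathione transferase families. Gm3776, a glutathione transferase gene, had 0.866 to 3.02 CPM on LD with a median of 2.27 and 0 to 0.14 CPM on CD, 331 and 7 counts in all (log2 fold change 5.42, SE 0.61, adjusted p = 7.36e-05), and the log2 fold change was 6.7 without CD mouse 3. Cyp2a4, a steroid hydroxylase, had 3.33 to 38.2 CPM on LD with a median of 23.7 and 0.495 to 0.978 on CD (4.94, SE 0.88, adjusted p = 0.00408), and Cyp2a22 had 6.85 to 53.0 and 1.04 to 3.94 CPM (3.83, SE 0.68, adjusted p = 0.00409). LD mice 1 and 2 were the lowest on LD for each of the 3, with 3.33 and 3.95 CPM of Cyp2a4 against 23.7 to 38.2 in the others, and 10.2 and 6.85 CPM of Cyp2a22 against 34.6 to 53.0. All 3 genes have near-identical relatives with which reads could have been shared. Their nearest loci outside H3K27ac had mean heights of 9.0, 7.33 and 25.5, and log2 fold changes of Hnf4α of 0.40, -0.53 and 0.48, none of which passed the test. Themis, a gene of T cell development, had 35.1 to 58.8 CPM on LD and 0.966 to 3.55 on CD (4.48, SE 0.32, adjusted p = 2.01e-05), with lymphocyte markers at 4.93 to 10.4 TPM in sum. Adgrv1, whose locus lies at its TSS, had 22.4 to 39.5 CPM on LD and 4.19 to 6.17 on CD (2.52, SE 0.15, adjusted p = 2.59e-06), while Hnf4α differed there by 0.69 (adjusted p = 0.264). The others were Tmem45b, Hebp2, Rcan2, Bcl2l14 and the matrix gene Tnc, at 1.53 to 3.40.

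Among the genes higher on CD, Adgrf1, an adhesion G protein-coupled receptor, had 0 to 1.03 CPM on LD with a median of 0.243 and 11.1 to 39.1 CPM on CD with a median of 28.0 (log2 fold change -5.69, SE 0.61, adjusted p = 0.000296). The locus outside H3K27ac nearest to it, chr17:43379553-43379836 at 27599 bp, was called in the opposite direction for Hnf4α, at 0.89 (edgeR adjusted p = 0.0487). This call lay near the threshold and was lost with the implied library totals as the only scaling. Adgrf1 was also nearest to 1 shared locus with H3K27ac. The study shows this gene as an example of higher acetylation on CD and of differential Hnf4α binding. Irs2 had 4.95 to 7.42 CPM on LD and 13.5 to 18.4 on CD (-1.35, SE 0.13, adjusted p = 1.86e-05), and Acmsd, an enzyme of tryptophan catabolism, had 4.64 to 12.9 and 15.2 to 29.3 CPM (-1.41, SE 0.33, adjusted p = 0.0107). Slco2a1, a prostaglandin transporter, had 10.7 to 15.6 and 26.1 to 39.8 CPM (-1.37, SE 0.14, adjusted p = 4.04e-05), and of the 19 genes it was the only one in PCHi-C contact with its locus. Bcl2l14, higher on LD by 1.58, had a locus called higher on CD for Hnf4α at -1.13 (adjusted p = 0.0454). The remaining genes higher on CD were Gm16551, Sfrp1, Dlgap1, Fras1 and Lrp2, at -2.32 to -1.36.

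**Figure D5:**
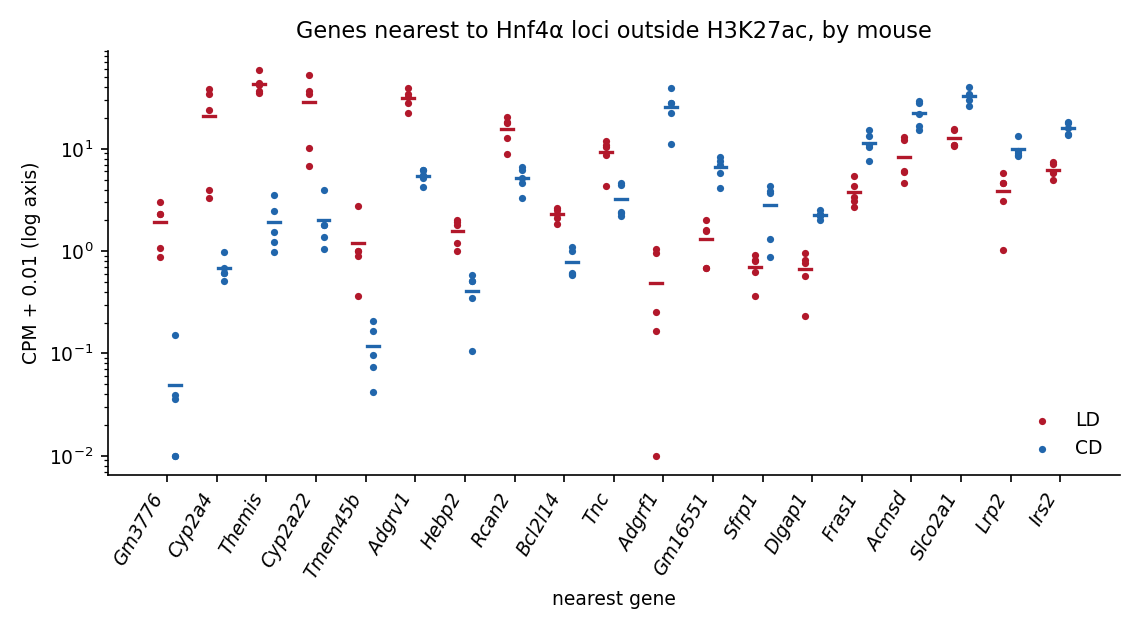
CPM (with 0.01 added, log axis) of 19 genes nearest to loci outside H3K27ac with the largest called folds, 10 higher on LD and then 9 higher on CD, with a point for each of 5 mice per diet (LD red, CD blue) and the mean as a line. The diets separate without overlap in 17 genes, and Tnc and Sfrp1 are the exceptions.

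Nearest genes of the same groups were called in both directions, and the shares over all tested genes were 13.8% higher on LD and 11.1% higher on CD. All 3 tested genes of coagulation, complement and plasma proteins, and all 3 of gluconeogenesis, glycolysis and glycogen, were higher on CD, with median log2 fold changes of -0.72 and -0.95. Of the 6 hepatocyte transcription factor genes 2 were higher on CD and none higher on LD. Abcb4, the only tested gene of bile acids, was higher on LD at 224.8 ± 36.3 TPM against 124.6 ± 15.9 TPM (SD, n = 5 each). Of the 9 tested Cyp, Ugt and Sult genes, 2 were called in each direction. Of 7 tested neuronal genes 1 was called, and of 4 tested patterning genes 1, both higher on LD. Sdsl, and 1 of 2 tested genes of intestinal and kidney epithelium, were higher on CD, and Eci2 was not called.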

How the data were processed

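Peaks of Hnf4α and C/EBPα ChIP-seq (2 libraries per diet) were called by the authors with HOMER on mm9 alignments. The deposited height of a peak is its normalised tag count, beside which the authors gave a peak score and the fold over input. The labels give each Hnf4α library another antibody catalogue number, whereas the study's methods name a single antibody. Whether libraries were thinned to equal totals is not given in the sources used here. H3K27ac peaks (3 per diet) were called by the authors with SICER and deposited as intervals without a signal. PCHi-C interactions were deposited with a CHiCAGO score from pooled replicates and filtered by the authors at 5. RNA-seq reads (5 mice per diet) were aligned with STAR 2.5 and summarised by the authors with featureCounts 1.5.0-p1, and both the deposited counts per gene and the authors' TPM values were used. Columns that hold the authors' own DESeq2 comparison were not used. Bowtie 0.12.8 and Picard 1.110 are named in the submitters' processing notes. A TPM column of CD whose number matched no label was used as a CD mouse without a number.

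Overlapping Hnf4α peaks were merged, loci with a peak in all 4 lists were kept, and those sharing a base with any H3K27ac peak were set aside. A locus was given to the nearest TSS and annotated with GENCODE on the same assembly (mm9), from which its central 200 bases were read. Tags and counts were tested with the quasi-likelihood test of edgeR 4.0.16 (R 4.3.3) with TMM scaling over all loci or genes and Benjamini-Hochberg adjustment, and SE is the log2 fold change divided by the square root of F. DESeq2 1.42.0 and limma 3.58.1, with 1 added to TPM, served as alternatives, together with other scalings and filters, a replicate block and each library left out. Scripts ran in Python 3.11.15 with pandas 2.3.3, scipy 1.17.1 and pysam 0.24.0 and were tested on simulated data. RNA libraries held 31707963 to 39012699 counts, and a locus outside H3K27ac had at least 14 Hnf4α tags per library with a median of 61.

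The loci, gene lists and marker lists were chosen with earlier results of these data known. The text names the 10 highest loci, the 10 loci near a TSS whose gene has the highest TPM, the 10 with the most contacts, the 5 called loci per direction with the largest fold for each factor, the 2 highest loci of each gene list, and the 10 called genes per direction with the largest fold and at least 1 CPM on a diet, 1 of which is not reported here. Loci that stand for a statement outside this rule were chosen after their values were seen.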

Additional observations from a re-analysis of the deposited data

Results flagged for a closer look

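In 4 of 40 groups of 5 mice, the expression of a named gene had 1 mouse set apart from the other mice of its diet, where chance sets apart about 1 group in 20. On LD, 1 mouse had 2.77 CPM of Tmem45b, whereas the other mice had 0.352 to 1.0 CPM. CD mouse 3 had 0.14 CPM of Gm3776, a gene near the detection limit on that diet, and the same mouse had 3.94 CPM of Cyp2a22, against 1.04 to 1.78 CPM in the others. For Lrp2, a CD mouse had 13.4 CPM, against 8.57 to 9.58 CPM.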

How the results depend on the processing

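The number of loci outside H3K27ac depended on the peak lists. It was 5570 when only peaks in all 6 H3K27ac lists removed a locus, 360 with Hnf4α peaks above the median score of their list, and 369 with peaks at least 10-fold over input, the last chosen after seeing the data. Leaving out 1 library gave 2189 to 3731 loci, the most without CD Hnf4α library 1. The share with C/EBPα was 14.2% for peaks in all 4 lists and 28.1% for peaks above the median score, and the share in contact was 6.43% at a CHiCAGO score of 10 and 15.6% for contact on both diets. The median TSS distance was 30474 bp by the reference annotation, the median TPM of nearest genes 8.25 among genes of at least 1 TPM (15.1 for loci with H3K27ac) and 0.288 for loci at least 2000 bp from H3K27ac, and the HNF4 string share 29.5% in the central 100 bases. For Hnf4α between diets, DESeq2 called 91 loci (71 higher on LD, 20 on CD), and edgeR with implied library totals as the only scaling called 0, 0 and 0, with 184 loci at an unadjusted p under 0.05, whereas dropping TMM alone, chosen after seeing the data, left 203. Leaving out 1 library gave 28 to 183 calls, 19 to 124 higher on LD and 9 to 64 higher on CD. For C/EBPα, DESeq2 called 29 (23 and 6), and leaving out 1 library gave 32 to 48, 26 to 38 and 6 to 11. For RNA, 171 of 557 genes were called within 50 kb (30.7%), a share near the 30.6% of the 956 genes tested. Over all tested genes 24.9% were called. Of the 557 genes, 68 (12.2%) were higher on CD, where 11.1% of all were. By limma, 77 were higher on CD (8.05%, where 5.48% of all were). The causes were not tested. None of these alternatives reversed a named value, and of 104 Hnf4α and 68 C/EBPα values 17 and 7 lost their call. Summing the tags of all peaks of a locus changes nothing by construction, since each shared locus held 1 Hnf4α peak per library, and says nothing about stability.

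Deviations of same-numbered libraries from their diet's mean were weakly correlated (0.017 for Hnf4α, -0.0477 for C/EBPα, -0.078 to 0.1914 for RNA). With 2 libraries per diet, the ChIP-seq values are the same for both numbers by construction. These correlations therefore cannot decide whether the numbers pair samples, and the main tests used diet only. With the replicate block, 278 loci were called for Hnf4α (13.1%, where 9.62% of all shared loci were called). Of these, 203 were higher on LD (9.59%, and 5.88% of all) and 75 on CD (3.54%, and 3.74% of all). It called 63 loci for C/EBPα (20.9%, where 15.9% of all were called). For RNA it called 277 genes (29%, where 23.5% of all tested genes were called).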

Other observations

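The acetyltransferase genes that lay down H3K27ac were measured beside the factors. Ep300 had 5.01 ± 0.959 TPM on LD and 6.74 ± 1.21 TPM on CD (SD, n = 5 each; edgeR log2 fold change -0.50, SE 0.13, adjusted p = 0.011). Crebbp had 7.16 ± 1.03 and 9.81 ± 1.49 TPM (-0.53, SE 0.10, adjusted p = 0.00146). Foxa2, a pioneer factor of hepatocyte enhancers, had 17.3 ± 3.73 and 16.2 ± 2.91 TPM and did not pass the test (0.03, SE 0.16, adjusted p = 0.916).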
